A study of Mus musculus with 6 samples.

Results

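The 10 genes described here, Lgr4, Lrp5, Lrp6, Rnf43, Znrf3, Fzd5, Fzd7, Ctnnb1, Tcf7l2 and Apc, encode receptors of the Wnt and R-spondin signals in the intestinal crypt and the proteins that carry those signals to the nucleus. They were chosen by name, and 10 of 10 were found among the 19057 genes named on the arrays. Mouse small intestinal organoids, which are crypt epithelium grown in culture, were profiled on Illumina arrays in 2 groups of 3. The control group carried the Villin-Cre transgene, and the Snai1 knockout group carried Villin-Cre with Snai1fl/fl alleles. The Villin promoter restricts Cre to gut epithelial cells. Snai1 is a transcriptional repressor of the Snail family. Both groups had received tamoxifen at 0.5 µM for 24 hours before harvest, so the agent and the transgene were common to all 6 samples. The sources used here give neither the age of the mice nor the culture medium, which sets the Wnt and R-spondin supply of an organoid. Nothing in the labels ties a replicate to a separate animal or culture, and the p-values below refer to the variation among these 6 samples alone, part or all of which may be technical.

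Wnt proteins bind a Frizzled receptor together with a co-receptor, Lrp5 or Lrp6. In their absence a destruction complex built around Apc and Axin marks beta-catenin, the product of Ctnnb1, for degradation. With Wnt bound, beta-catenin accumulates and joins Tcf7l2, the main DNA-binding partner in the intestinal epithelium, at target genes. The membrane ubiquitin ligases Rnf43 and Znrf3 remove Frizzled receptors from the cell surface, and R-spondins bound to Lgr4 or its relatives withdraw these ligases. Crypt stem cells depend on this circuit for self-renewal.

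Values are the authors' normalized values on a log scale, taken as base 2. They ran from 7.71 to 14.8, with a median of 7.87 and an upper quartile of 8.27, so low values are crowded together and differences of dim genes are understated. Arrays correlated at r = 0.994 to 0.997. Snai1 read 7.91 ± 0.04 in control and 7.91 ± 0.05 in knockout (SD, n = 3 each; adjusted p = 0.999, limma), too dim to check the labels. Of 9 epithelial markers 8 lay above the upper quartile, and the exception, Epcam, read 8.13 and 8.10. None of 10 mesenchymal, 5 endothelial or 4 measured immune markers did. The list means of the mesenchymal markers ran from 7.85 to 7.86 on control and from 7.86 to 7.87 on knockout arrays, near the median of all probes.

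Brightness set what could be measured for each gene. The 10 genes had 29 probes, of which 10 lay above the upper quartile and 11 below the median. By its brightest probe, which stands for the gene below, Ctnnb1 was brighter than 98.6% of all probes, Fzd5 than 97.2%, Tcf7l2 than 86.8%, Fzd7 than 83.0% and Lrp6 than 79.6%. Apc and Lrp5 were each brighter than 75.3%, and Rnf43 than 72.4%. Znrf3 and Lgr4 had a single probe each, brighter than only 27.7% and 5.71% of probes. At the levels of Lgr4 and Znrf3 a fall in transcript could go unseen, and a small rise would be understated. Levels of different genes are not ranked, since probes differ in their own efficiency.

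**Figure D1:**
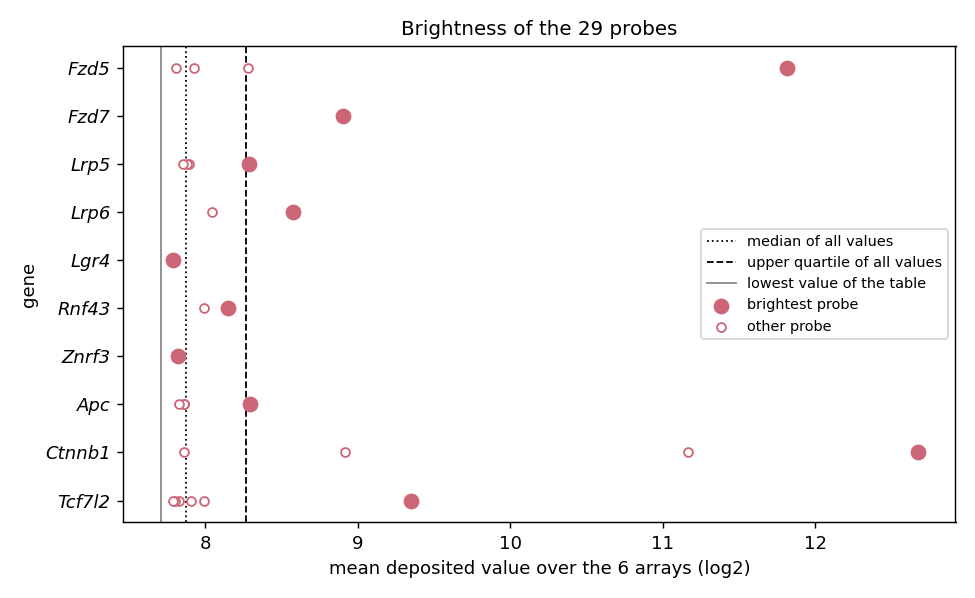
Mean deposited value over the 6 arrays (log2, horizontal axis) of each of the 29 probes, by gene. Filled circles are the brightest probe of a gene and open circles its other probes; vertical lines mark the lowest value (7.71), the median (7.87) and the upper quartile (8.27) of the table. The single probes of Lgr4 and Znrf3 lie left of the median line.

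The question put to these genes was whether loss of Snai1 went with a change in the Wnt receiving machinery. None of the 10 passed the test across all genes (limma, adjusted p under 0.05), where 0.131% of genes did (25 of 19057). Once the fit held the replicate number as a block, 9 of all genes passed (0.0472%) and again none of the 10. Their adjusted p ran from 0.63 for Lrp5 to 0.999 for Ctnnb1 and Znrf3. At an unadjusted p under 0.05 there was 1 of the 10, Lrp5, against 7.22% of all genes. The groups did not overlap for the same 1 of 10, against 12.0% of all genes, and 5.85% of all genes were, like Lrp5, lower in knockout without overlap. The mean was higher in knockout for 4 of the 10 and for 49.3% of all genes. The median difference, always given as knockout minus control on the log2 scale, was -0.0061 over the 10 genes and -0.00057 over all genes. By the brightest probes, the 95% intervals of the 10 differences reached no further from 0 than 0.32, the upper bound for Fzd7. That is a 1.25-fold difference on the deposited scale. The intervals of Lgr4 and Znrf3, near the bottom of the scale, do not bound the change in transcript. Those of other dim genes are narrowed too, as seen once the lowest value was subtracted on the linear scale and 50 added back. Fzd7 then differed by 0.19 ± 0.11 (SE) and Rnf43 by 0.08 ± 0.12, while the bright Fzd5 stayed near its value, at 0.16 ± 0.084. Other probes could have wider intervals, such as -0.41 to 0.64 for the second Ctnnb1 probe. For comparison, the smallest difference that passed among the 19057 genes, by their brightest probes, was 0.21. Whether a difference passes depends on the gene's own SE, so 0.21 is not a limit of detection for the 10 genes.

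**Figure D2:**
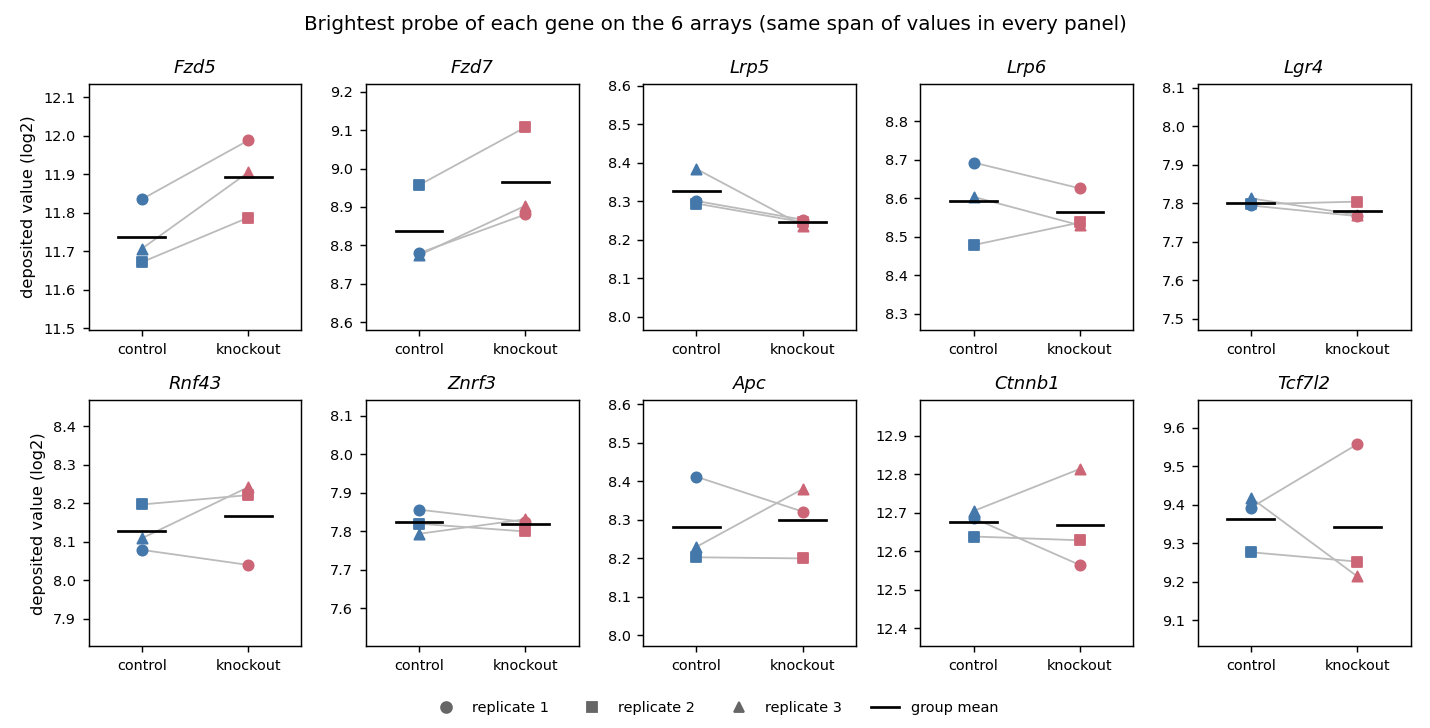
Deposited value (log2, vertical axis) of the brightest probe of each gene on the 3 control and 3 knockout arrays. Every panel spans the same range of values, symbols mark the replicate number, grey lines join arrays of the same number and black bars are group means. The lines slope upward in all 3 pairs for Fzd5 and Fzd7 and downward in all 3 for Lrp5, whose groups alone do not overlap.

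Among the Frizzled receptors, Fzd5 had the largest difference of the 10 genes, and Fzd7 the next largest. Fzd5, a receptor for canonical Wnts that is needed for Paneth cell maturation, read 11.84, 11.67 and 11.71 on control arrays 1 to 3 and 11.99, 11.79 and 11.91 on knockout arrays 1 to 3. The groups overlapped, because control array 1 lay above knockout array 2, but each knockout array lay above the control array of its own number. The difference was 0.16 ± 0.065 (SE; 95% interval -0.0043 to 0.32; adjusted p = 0.71, limma; exact permutation p = 0.2, two-sided, smallest possible 0.1). Fzd7, a receptor with a known role in crypt stem cells, read 8.78, 8.96 and 8.77 in control and 8.88, 9.11 and 8.90 in knockout. Here too the groups overlapped through control array 2, the highest of its group, whose partner was the highest of the knockout group. The difference was 0.13 ± 0.079 (SE; 95% interval -0.067 to 0.32; adjusted p = 0.86, limma; exact permutation p = 0.3).

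Within pairs of the same number the Frizzled differences had 1 sign. They came to 0.15, 0.12 and 0.20 for Fzd5 and to 0.10, 0.15 and 0.13 for Fzd7. With the replicate block the SE shrank from 0.065 to 0.027 for Fzd5 and from 0.079 to 0.024 for Fzd7, with an unadjusted p of 0.0034 and 0.0047 in limma. The adjusted p remained above the threshold, at 0.18 and 0.19. These were 2 of the 10 genes at an unadjusted blocked p under 0.05, against 10.9% of all genes. A difference of 1 sign in all 3 pairs was found for 3 of the 10 genes, against 30.7% of all genes. Fzd5 and Fzd7 were higher in all 3, as were 15.7% of all genes, and Lrp5 lower, as were 15.1%. The 3 dimmer probes of Fzd5 differed by 0.03, 0.0074 and -0.0057, and the mean of the 4 probes by 0.048. Those 3 probes had mean levels of 8.30 or less in both groups.

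The promoters of Fzd5 and Fzd7 are shown because these genes had the largest differences of the 10 and because Snail proteins bind the E-box CAGGTG. The table of RefSeq promoter windows (GRCm38.p6; 250 bases before to 50 after the start of the gene) held 9 windows for 6 of the 10 genes. CAGGTG, read on both strands as CAGGTG or CACCTG, was present in 1 of these 9 windows, that of Fzd5, and in 20.2% of all 32851 windows. CTTTGAT, a TCF and LEF motif whose reverse is ATCAAAG, was present in 0 of the 9 and in 3.73% of all; the motifs do not overlap. The 100 bases before the start of each gene are given 5′ to 3′, with the E-box in capitals, for Fzd5 on the minus strand (chr1:64737751-64737850) and for Fzd7 on the plus strand (chr1:59482047-59482146).
Fzd5: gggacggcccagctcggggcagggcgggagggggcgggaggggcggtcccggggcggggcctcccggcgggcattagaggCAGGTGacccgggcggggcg
Fzd7: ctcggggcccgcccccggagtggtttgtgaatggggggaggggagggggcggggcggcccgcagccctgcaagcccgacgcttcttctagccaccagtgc
The E-box of Fzd5 begins 20 bases before the start. G and C made up 84.0% of the Fzd5 stretch and 74.0% of the Fzd7 stretch. Binding was not measured here, and a match is a description of these letters only.

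Of the co-receptors, Lrp5 separated the groups and Lrp6 did not. Lrp5 read 8.30, 8.29 and 8.38 on control arrays and 8.25, 8.25 and 8.24 on knockout arrays. All 3 knockout values lay below all 3 control values, by a margin smaller than the spread of the controls. The difference was -0.08 ± 0.030 (SE; 95% interval -0.15 to -0.0085; adjusted p = 0.63, limma; exact permutation p = 0.1, the smallest possible). With the replicate block the adjusted p was 0.47, and with a variance that follows the level the SE was 0.055. The 3 other Lrp5 probes, at mean levels from 7.84 to 7.90, differed by 0.01, 0.02 and 0.03, opposite in sign to the bright probe, and the mean of the 4 probes differed by -0.0055. Once the lowest value of the table had been subtracted on the linear scale, with 50 added back, the Lrp5 difference was -0.17 ± 0.077 (SE).

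Lrp6, the close relative of Lrp5, read 8.69, 8.48 and 8.60 in control and 8.63, 8.54 and 8.53 in knockout. The knockout values lay inside the control range. The difference was -0.03 ± 0.060 (SE; 95% interval -0.17 to 0.12; adjusted p = 0.99, limma), and its dimmer probe differed by -0.02. The Lrp5 and Lrp6 differences were not tested against each other.

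The genes of the R-spondin arm lay low on the scale. Lgr4, the R-spondin receptor found throughout the crypt epithelium, read 7.79, 7.80 and 7.81 in control and 7.77, 7.80 and 7.77 in knockout, a difference of -0.02 ± 0.021 (SE; 95% interval -0.07 to 0.03; adjusted p = 0.94, limma). Znrf3 read 7.86, 7.82 and 7.79 in control and 7.82, 7.80 and 7.83 in knockout, a difference of -0.0048 ± 0.024. Both intervals are narrow because values near the bottom are crowded, and they do not bound the change in transcript. Rnf43, the paralogue of Znrf3 and itself a Wnt target, was measured somewhat above the bottom. It read 8.08, 8.20 and 8.11 in control and 8.04, 8.22 and 8.24 in knockout, with overlapping groups and a difference of 0.04 ± 0.063 (SE; 95% interval -0.11 to 0.19; adjusted p = 0.98). Its second probe differed by -0.02.

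Downstream of the receptors, group means were close for all 3 genes, with wider spread on the knockout arrays for Ctnnb1 and Tcf7l2. Ctnnb1 read 12.69, 12.64 and 12.70 in control and 12.56, 12.63 and 12.81 in knockout. The knockout values lay on both sides of the control values, and the difference was -0.0074 ± 0.066 (SE; 95% interval -0.17 to 0.15; adjusted p = 0.999, limma). On the deposited scale that interval runs from 0.889-fold to 1.11-fold. Its SD was 0.034 on control and 0.13 on knockout arrays, a contrast that was not tested. Tcf7l2 read 9.39, 9.28 and 9.42 in control and 9.56, 9.25 and 9.21 in knockout. Knockout array 1 was the highest of the 6 and knockout arrays 2 and 3 the lowest. The difference was -0.02 ± 0.098 (SE; 95% interval -0.26 to 0.22; adjusted p = 0.998). Apc, the scaffold of the destruction complex, read 8.41, 8.20 and 8.23 in control and 8.32, 8.20 and 8.38 in knockout, a difference of 0.02 ± 0.072 (SE; 95% interval -0.16 to 0.19; adjusted p = 0.997).

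Pair differences of these downstream genes changed sign with the replicate number. For Tcf7l2 they were 0.17, -0.02 and -0.20, for Ctnnb1 -0.12, -0.0098 and 0.11, and for Apc -0.09, -0.0029 and 0.15. Thus Ctnnb1 and Apc were lower in knockout in the pair numbered 1 and higher in the pair numbered 3, and Tcf7l2 the other way round.

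**Figure D3:**
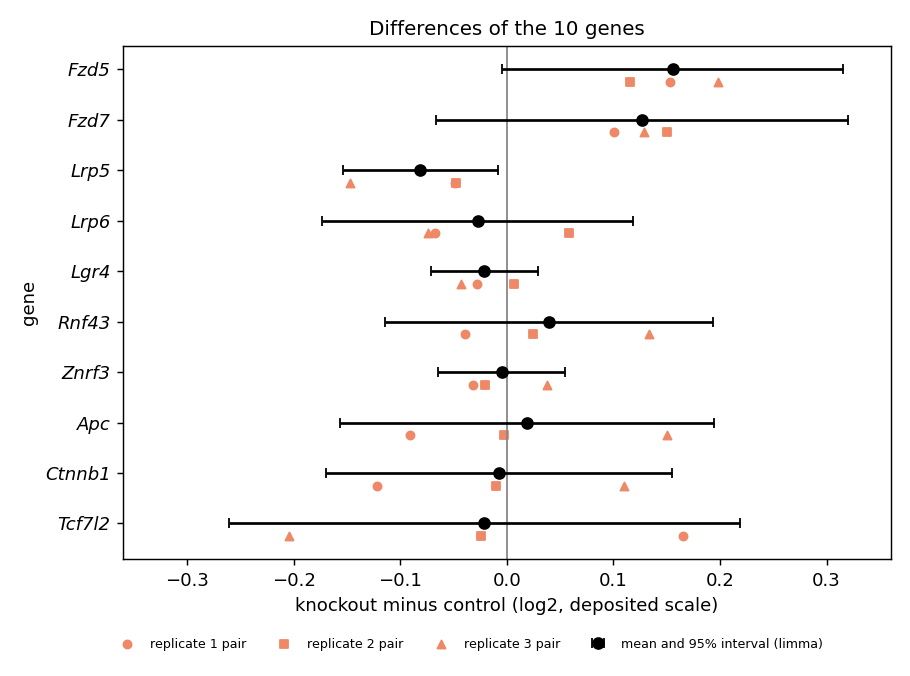
Knockout minus control (log2, horizontal axis) of each gene. Black points are mean differences with the 95% interval of the limma test without a block, and orange symbols are the differences within pairs of the same replicate number. Of the 10 intervals only that of Lrp5 (-0.15 to -0.0085) leaves out 0, and only Fzd5, Fzd7 and Lrp5 have 3 pair differences of 1 sign.

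Probes of the same gene did not always move together. Ctnnb1 had 3 probes above the upper quartile. The second, ILMN_2696575, read 11.12, 10.83 and 11.36 in control and 10.81, 11.30 and 11.55 in knockout, a difference of 0.11 ± 0.22 (SE; adjusted p over all probes 0.98, limma). The next, ILMN_1255869, read 8.98, 9.33 and 8.79 in control and 8.79, 8.90 and 8.70 in knockout, a difference of -0.24 ± 0.14 (SE; adjusted p over all probes 0.92). Its pair differences were all negative, at -0.19, -0.43 and -0.10, with an adjusted p over all probes of 0.43 in limma with the replicate block. On control arrays both spread more than the brightest probe did. The sources used here do not say which exons or transcript forms the probes cover. Tcf7l2 had 5 further probes and Apc 3, each brighter than at most 66.9% of all probes, with differences between -0.02 and 0.04. Over the 29 probes, 14 had a higher and 15 a lower mean in knockout. None passed over all probes with limma, where 0.0883% of probes did, and 1 had an unadjusted p under 0.05, against 6.23% of all probes. The groups did not overlap for 1 of the 29, against 11.2% of all probes.

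The rest of the pathway was read from 6 lists with 99 genes, 97 of them measured. The lists overlapped, since some crypt targets, such as Lgr5 and Lef1, also stood in another list, so counts by list share genes. None passed limma's test over all genes, with or without the replicate block. The smallest adjusted p was 0.23 (Csnk1e) without the block and 0.069 (Lgr5) with it. An unadjusted p under 0.05 was found for 8 of the 97 (8.25%, against 7.22% of all genes), and groups that did not overlap for 12 (12.4%, against 12.0%), of which 6 were higher and 6 lower in knockout. The median difference was 0.0055.

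Of 14 other Frizzled, R-spondin receptor and co-receptor genes, 0 passed in either direction, 11 had a higher mean and the median difference was 0.0094. Lgr5, the R-spondin receptor that marks crypt stem cells and a relative of Lgr4, read 8.63, 9.10 and 8.75 in control and 8.99, 9.56 and 9.19 in knockout. Its groups overlapped, while all 3 pair differences were positive, at 0.35, 0.45 and 0.44. The difference was 0.42 ± 0.18 (SE; adjusted p = 0.73, limma), and the SE was 0.030 and the adjusted p 0.069 with the replicate block. Fzd6, a Frizzled best known from planar polarity, read 8.40, 8.40 and 8.33 in control and 8.10, 8.22 and 8.28 in knockout, a difference of -0.18 ± 0.051 (SE; adjusted p = 0.47, limma). Ryk, a Wnt-binding pseudokinase, read 11.10, 10.98 and 11.10 in control and 11.31, 11.15 and 11.29 in knockout, a difference of 0.19 ± 0.056 (SE; adjusted p = 0.50). The groups of both genes did not overlap, in opposite directions. Of 25 genes for Wnt ligands, R-spondins and Wnt secretion 0 passed and 16 had a lower mean, with a median difference of -0.0072. Only Wls, the carrier that takes Wnts to the cell surface, lay above the upper quartile. Wls read 8.78, 8.78 and 8.90 in control and 8.77, 9.16 and 9.43 in knockout, with overlapping groups. Its difference was 0.30 ± 0.16 (SE; adjusted p = 0.81, and 0.45 with the replicate block, limma). The ligand genes of lowest p, Rspo3 at -0.06 and Wnt8b at -0.05, lay below the median of all probes.

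Among 17 genes for Dishevelled, the destruction complex and beta-catenin turnover, 0 passed, 10 had a higher mean and the median difference was 0.0037. Csnk1e, a casein kinase that phosphorylates Dishevelled, had the lowest p of the 97 genes without the block. It read 9.34, 9.44 and 9.45 in control and 9.62, 9.60 and 9.59 in knockout, a difference of 0.19 ± 0.034 (SE; adjusted p = 0.23, and 0.18 with the replicate block, limma). Axin1, the scaffold that binds Apc, read 10.09, 10.09 and 10.12 in control and 10.18, 10.43 and 10.50 in knockout, a difference of 0.27 ± 0.081 (SE; adjusted p = 0.50). In both genes every knockout value exceeded every control value, and neither passed the test.

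Of 15 measured nuclear partners of beta-catenin 0 passed, 10 had a higher mean and the median difference was 0.017. Tle1, a Groucho corepressor that opposes beta-catenin at TCF proteins, read 10.73, 10.56 and 10.73 in control and 10.80, 10.88 and 10.96 in knockout, a difference of 0.21 ± 0.062 (SE; adjusted p = 0.51, limma). Lef1, a TCF family factor, differed by -0.06 from 7.86 in control, near the bottom of the scale. The 17 secreted and membrane antagonists were all below the upper quartile. Of them 9 had a higher mean and 0 passed; Sfrp5 differed by -0.05 and Sfrp1 by -0.07. Of 14 measured crypt targets of Wnt signalling, 12 had a higher mean, against 49.3% of all genes, some by as little as 0.00037. Only 8 of the 14 lay above the upper quartile, the median difference was 0.05 and 0 passed. The crypt target of lowest p was Lef1, given above, which was lower in knockout. Next came Cd44, an adhesion receptor, which differed by 0.12 ± 0.051 (SE; adjusted p = 0.70, limma).

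**Figure D4:**
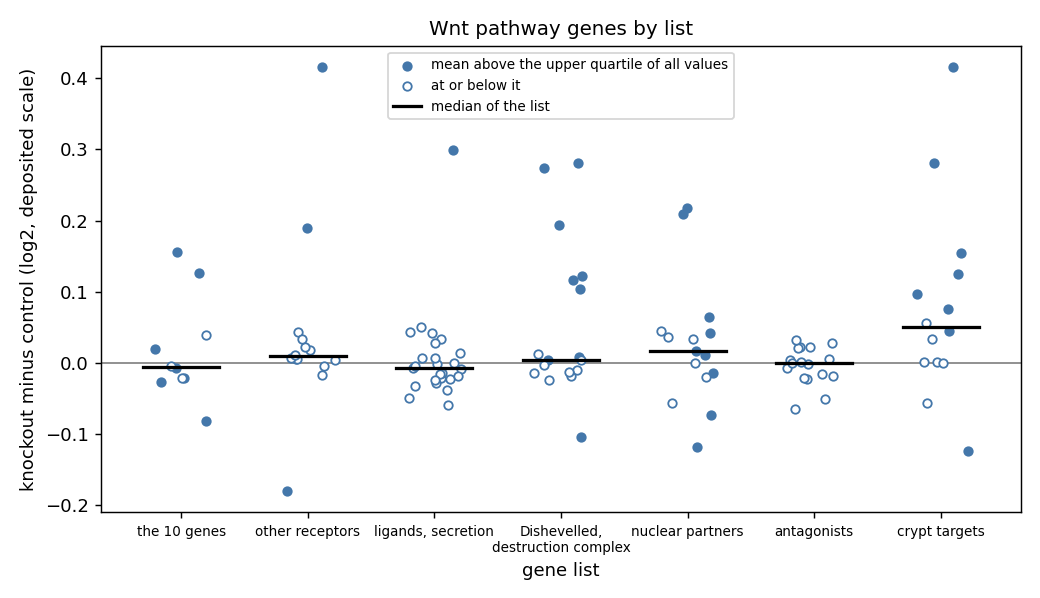
Knockout minus control (log2, vertical axis) of every measured gene in the 10-gene set and in the 6 pathway lists; filled points have a mean above the upper quartile of all values and black bars are list medians. The bars lie between -0.0072 (ligands) and 0.05 (crypt targets), and the points furthest from 0 are filled.

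Markers of small intestinal cell lineages were read beside these values. In bulk samples fewer cells of a type and less RNA per cell cannot be told apart. Of 9 measured lineage markers, 5 had a higher and 4 a lower mean in knockout, and 0 passed. The groups did not overlap for the stem cell transcript Olfm4 (difference 0.45 ± 0.13, SE), the Paneth cell lysozyme Lyz1 (-0.10 ± 0.031) and the enteroendocrine granule gene Chga (-0.17 ± 0.043). Adjusted p was 0.48 for Olfm4, 0.52 for Lyz1 and 0.39 for Chga (limma). The remaining markers of the list overlapped. For comparison, control and knockout were separated in this way for 12% of the whole array's genes and for 14.9% of those above the upper quartile. The list means ran from 10.81 to 11.02 on control arrays and from 10.75 to 11.14 on knockout arrays. Their part in the Fzd5, Fzd7 and Lrp5 differences was not tested.

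Lrp5 had the lowest p of the 10 genes, so the genes with values most like it over the 6 arrays were listed. They were Klhl11 (Pearson r = 0.995, Spearman rho = 1), Tbc1d32 (0.982 and 0.771), Scn4b (0.980 and 0.886), Slc7a1 (0.978 and 1) and Cdk5 (0.974 and 0.886). These are the extremes of 19057 genes over only 6 arrays, and 149 genes had r over 0.9. Differences of the listed genes lay between -0.09 and -0.03. Klhl11 read 7.86 in control and 7.83 in knockout, and Tbc1d32 7.86 and 7.81, all below the median of all values.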

How the data were processed

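Total RNA of 6 organoid samples was isolated with Trizol and a DNase I column step and made into biotinylated cRNA for Illumina arrays, per the labels' protocols. The authors deposited 1 table of log values for 45281 probes, taken as log2; the sources used here do not name the software, background correction or log base. Once sorted, values differed between arrays by no more than 0.0019, as after quantile normalization, so no further normalization was applied.

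Platform annotation named 34885 probes with 1 gene and 18 with several, and the other 10378 are unnamed here. Each gene took its probe with the highest mean. Groups came from sample titles. Knockout was compared with control over all genes with limma 3.58.1 in R 4.3.3 (eBayes without trend, Benjamini-Hochberg, threshold 0.05), and over all probes in a separate run. The test was tried on simulated data with 19057 genes, with independent noise and changes given only to genes above the upper quartile. It recovered 85.1% of 67 genes changed by 0.5, 97.0% of 67 changed by 1 and 100% of 66 changed by 2, while 6% of calls were false. The real data gave only 25 calls, the largest at an unadjusted p of 4.6e-05 (limma). With more changed genes the Benjamini-Hochberg threshold is easier to pass, so these rates do not carry over to the 10 genes. Recovery of dimmer genes, such as Lgr4, Znrf3 and Rnf43, was not simulated. The number of arrays limits the precision.

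Deviations from group means correlated at r = 0.35, 0.33 and 0.46 between arrays of the same replicate number. Between arrays of different numbers r ran from -0.33 to 0.0026. Deviations within a group cancel, so these values are not independent. The numbers were taken to pair the samples only for the pair differences and the fit with the replicate block, although no label says what a number shares. The main fit had no block, so its intervals and adjusted p leave any such pairing out. Named genes are the 10 genes, Snai1, the 2 of lowest p in each list, any that passed, and the 5 most like the member of lowest p; Lgr5, Wls, Epcam, Olfm4, Lyz1 and Chga were named after their values were seen. The members and lists were chosen with earlier results of these data known. A planned comparison of protein sequences was not made. Alternatives covered the replicate block, the mean of probes, a filter on dim genes, cyclic loess, removal of the offset, the variance model, array weights and leaving out each array.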

Additional observations from a re-analysis of the deposited data

How the results depend on the processing

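None of the 10 genes passed under any of the 14 alternatives, although Lgr4 and Znrf3 dropped out when genes below the median were removed. Over all genes 25 passed as fitted, against 9 with the replicate block, 54 with the offset removed, 60 with a variance trend and 4 to 23 when 1 array was left out (6, 15 and 9 without control replicate 1, 2 or 3, and 23, 13 and 4 without knockout replicate 1, 2 or 3). The number of the 10 genes with groups that did not overlap was 1, against 0 with the mean of probes (Lrp5 then overlapped) and 1 to 3 with an array left out, where fewer arrays make separation easier. The block changed no call among the 10 genes, their 29 probes or the pathway lists. Fzd5, Fzd7, Lrp5, Rnf43 and Lgr4 kept their direction in every alternative that included them: Fzd5 ran from 0.05 to 0.21, Fzd7 from 0.05 to 0.19 and Lrp5 from -0.17 to -0.0055. With array weights Ctnnb1 differed by 0.0045 in place of -0.0074. Leaving out 1 array also turned the sign of Ctnnb1 (-0.080 to 0.045), Lrp6 (-0.084 to 0.023), Znrf3 (-0.020 to 0.012), Tcf7l2 (-0.13 to 0.042) and Apc (-0.021 to 0.084); and the cause was not tested. Levels near the bottom of the scale limit Lgr4 and Znrf3.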

Other observations

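Pathway genes bright enough to be measured well were looked at again, a split made after the values were seen. Of the 97 pathway genes, 29 lay above the upper quartile, and 23 of these had a higher mean in knockout, with a median difference of 0.076. Over all 6969 genes above the upper quartile 3582 had a higher mean, with a median of 0.0036. Of the 10 receptor and effector genes, 7 lay above it, 3 with a higher and 4 with a lower mean, and a median difference of -0.0074. Groups did not overlap for 5 of the 29 pathway genes, against 14.9% of all genes this bright, and none passed the limma test (smallest adjusted p = 0.23, Csnk1e, and 0.069, Lgr5, with the replicate block). Genes in these lists share arrays and pathway, so the counts are a description.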
